A study of Mus musculus with 2 samples.

Results

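The genes described here encode the 3 retinoid X receptors (Rxra, Rxrb and Rxrg), the 2 liver X receptors (Nr1h2, for LXRβ, and Nr1h3, for LXRα) and the peroxisome proliferator-activated receptors other than Pparg (Ppara and Ppard). They are 7 of the 21938 protein-coding genes of the mouse annotation used here, GENCODE release M21. They were chosen by name, and every DNase-seq peak and hotspot overlapping a gene body extended by 100 kb on each side was given to the gene whose start site lay nearest. This gave 87 of the 133695 peaks and 79 of the 117685 hotspots of replicate 1, and 148 of the 216556 peaks and 121 of the 185029 hotspots of replicate 2. DNase-seq maps the places where the nuclease DNase I can cut chromatin. A hotspot is a stretch of such cutting of varying width, and a peak is a summit with a fixed width of 150 bp. Some hotspots here are narrower than a peak. The cells were mouse adipocytes obtained in culture from 3T3-L1, a preadipocyte line that fills with lipid after hormonal induction, at day 8 of differentiation. Both libraries belong to this 1 group, with no undifferentiated cells or other tissue beside it, so accessibility is described within these cells and no difference between conditions is given. The labels number the libraries as biological replicates 1 and 2 with 1 donor record, give C57BL/6J as the strain although 3T3-L1 is generally traced to Swiss mice, and do not say whether the cultures were differentiated separately.

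Nuclear receptors are transcription factors that bind fatty acids, sterols, retinoids and other small lipids. RXR is the common partner: LXR and PPAR proteins bind DNA as heterodimers with an RXR, at pairs of the core AGGTCA that lie in direct repeat, spaced by 4 bases for LXR and by 1 base for PPAR. In adipocytes the best known of these dimers is that of PPARγ with RXRα, which drives the adipocyte programme; LXRs respond to oxysterols and induce cholesterol export and fatty acid synthesis, and PPARα and PPARδ induce fatty acid oxidation.

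The peak lists differed in length, and the value that the authors gave each peak ran from 1 to 150 in both lists, with a median of 45 in replicate 1 and 69 in replicate 2. That value is the authors' own, its scaling and the sequencing depth are unknown, and it served to rank peaks within a list as a percentile. Markers of the labelled cell type were accessible: 9 of 9 adipocyte genes had a promoter peak in both replicates, against 0 of 4 hepatocyte, 1 of 3 skeletal muscle (Ckm), 1 of 4 macrophage and blood (Csf1r) and 0 of 3 endothelial genes. Over all protein-coding genes, 57.2% had one in both. Replicate 2 alone also had promoter peaks at Adgre1 and Cd68 of the macrophage and blood genes and at Pecam1 of the endothelial genes. The endothelial genes had a median of 10 distal shared sites, beside 13 for the adipocyte genes and 2 over all protein-coding genes. Of 5 preadipocyte or fibroblast genes 4 had a promoter peak in both replicates too (all but Dlk1), and their median was 14 distal shared sites. The part of undifferentiated or other cells in the sites below was not tested. In bulk chromatin, a site open in fewer cells and a site less open in each cell cannot be told apart.

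At the 7 receptor genes 84 of the 87 replicate 1 peaks (96.6%, exact binomial 95% interval 90.3% to 99.3%) overlapped a replicate 2 peak, against 90.3% of all replicate 1 peaks. In the other direction 83 of 148 replicate 2 peaks (56.1%, 47.7% to 64.2%) overlapped a replicate 1 peak, against 55.5% of all. With the replicate 2 list shortened by value to the length of the other, the share was 61.8% at the receptor genes, against 76.2% over all peaks. These intervals treat peaks as independent, which neighbouring peaks are not. Merging overlapping peaks left 81 sites shared by both replicates, 3 seen in replicate 1 alone and 64 in replicate 2 alone. Of the shared sites 15 lay within 1000 bp of a start site and are called promoter sites, and 66 were distal. The distal ones were placed 26 upstream of their gene, 28 within it and 12 beyond its end, and by annotation 37 were intergenic, 24 intronic, 4 in UTR exons and 1 in a coding exon. They ranked above the middle of the lists, with a median percentile of 70.1 in replicate 1 and 81.1 in replicate 2, against 48.5 and 67.3 over all distal shared sites. Their median GC content was 55.3%, against 47.5%. Sites found in replicate 2 alone also ranked higher at these genes, with a median percentile of 51.8 against 28.5 over all such sites. With each list's ranking fixed by the authors' values and many sites sharing a gene, these medians are descriptions without a test.

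A promoter peak in both replicates was present at 6 of the 7 genes, against 57.2% of all protein-coding genes. The exception was Ppara. At least 1 distal shared site was also present at 6 of the 7, against 68.0% of all genes, and here the exception was Rxrb. The counts of distal shared sites covered a wide range: 36 for Rxra, 12 for Ppard, 11 for Ppara, 3 for Rxrg, 2 each for Nr1h2 and Nr1h3, and 0 for Rxrb, beside a median of 2 over all genes. Taken by replicate, Rxra had 39 distal peaks in replicate 1 and 66 in replicate 2, Ppard 13 and 17, and Ppara 13 and 27. Rxra led in both lists, while Ppard and Ppara were level in replicate 1 and Ppara was ahead in replicate 2, so their order rests on which sites the libraries shared. Sites were assigned by the nearest start site, so each count came from the length of genome nearest to that gene, which was 211 kb for Rxra, 133 kb for Ppara, 121 kb for Rxrg, 78.5 kb for Ppard, 15.5 kb for Nr1h3, 12.9 kb for Nr1h2 and 6.2 kb for Rxrb. Per 100 kb of that length, Rxra held 17.0 sites, Nr1h2 15.5, Ppard 15.3, Nr1h3 12.9, Ppara 8.28, Rxrg 2.48 and Rxrb 0, against 4.43 over all genes. Nr1h2 and Nr1h3 thus stood beside Rxra and Ppard by density although each had only 2 sites, and Rxrg had a long stretch of its own with few sites.

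**Figure D1:**
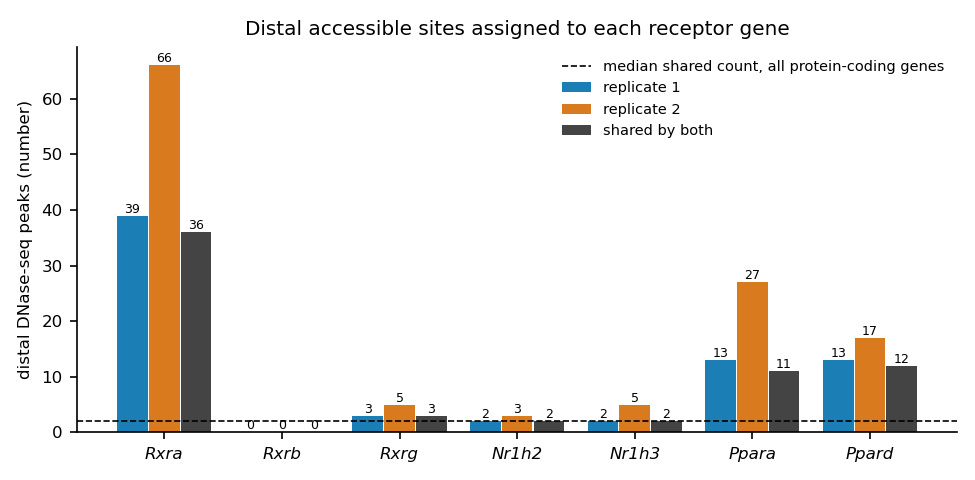
Number of distal DNase-seq peaks assigned to each receptor gene (vertical axis) in replicate 1, in replicate 2 and as sites shared by both; the dashed line is the median shared count of 2 over all protein-coding genes. Rxra stands highest with 39, 66 and 36, and Rxrb has none.

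**Figure D2:**
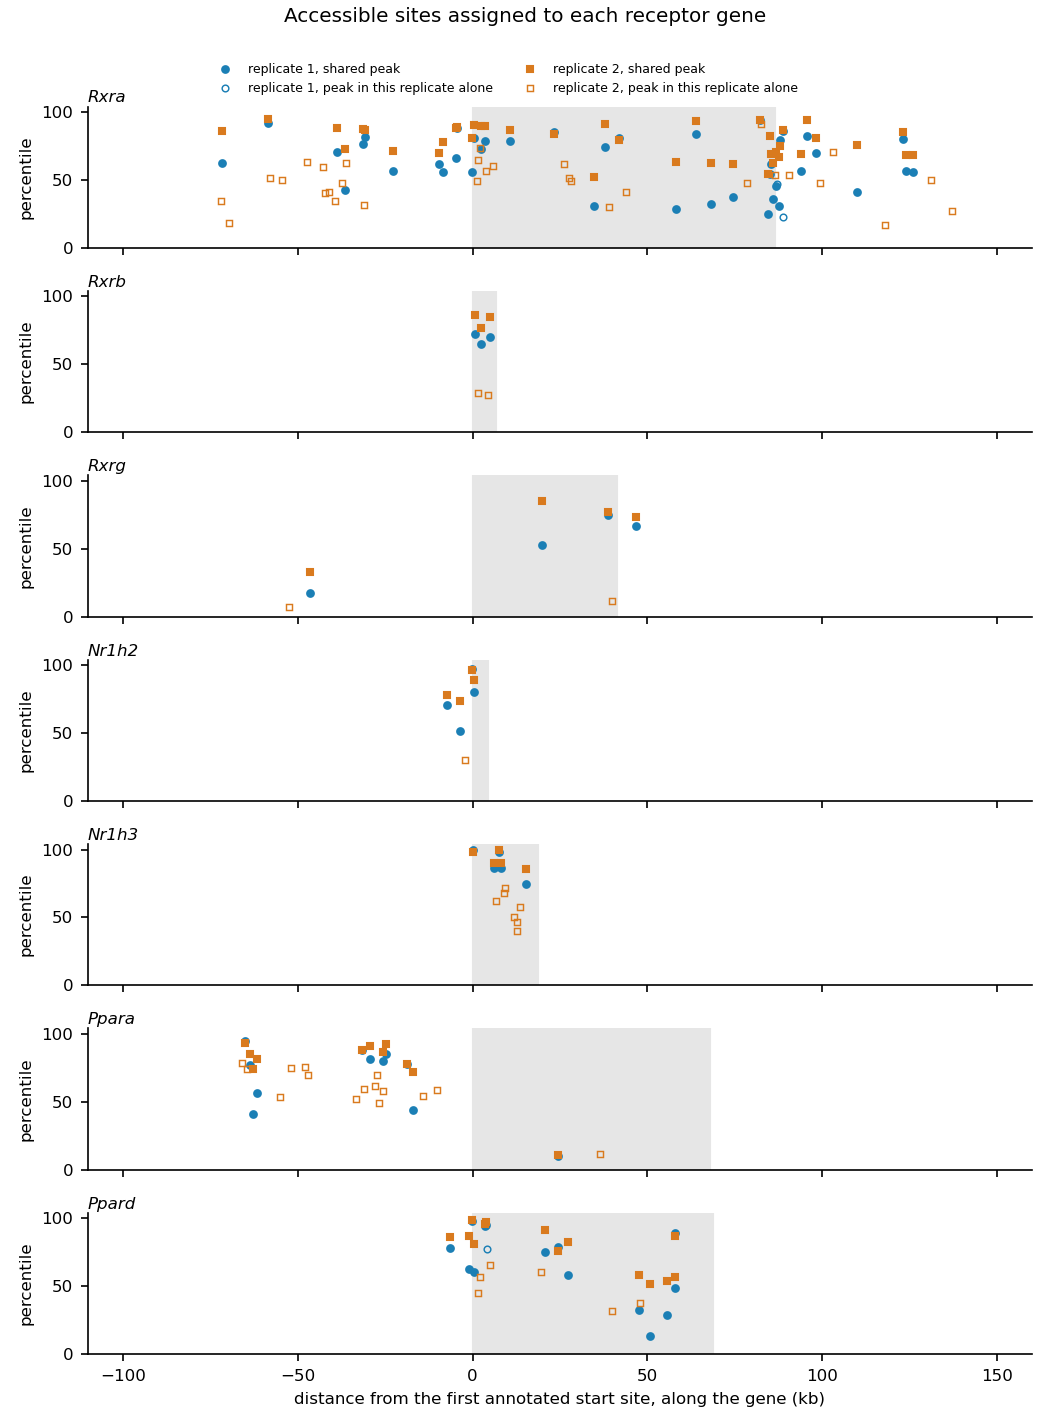
Position of every peak assigned to each gene, as distance along the gene from the first annotated start site (horizontal axis, kb), against the peak's percentile within its own replicate's list (vertical axis); grey bands are gene bodies, filled symbols are sites shared by both replicates and open symbols are peaks of 1 replicate alone. Rxra sites spread over the whole stretch, whereas 10 of the 11 shared Ppara sites lie upstream of the gene and 10 of the 12 distal shared Ppard sites lie within it.

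Rxra encodes RXRα, the partner of PPARγ in fat cells, and lies at chr2:27676440-27762957 on the plus strand (mm10, as for all positions here). Only 91 of the 21938 genes had more distal shared sites than its 36, and 12, Rxra among them, had the same number. Its window held 1 protein-coding gene body, its own, and even among genes with a comparable length of nearest genome, where the median was 8, 95.8% had fewer. Of these sites 11 lay upstream, 14 inside the gene and 11 downstream. The promoter of its main transcripts was accessible in both libraries. The peak nearest to it had a value of 76 in replicate 1 and 124 in replicate 2 (percentiles 80.7 and 90.4), and another site centred 150 bp before the upstream start of transcript Rxra-204 had 49 and 106. Among the 24657 promoter sites shared by both libraries these were middling ranks, at percentiles of 55.7 and 58.7 for the nearest and of 30.3 and 40.6 for the other. An internal start at 27710583 had a weaker peak (33 and 71), and the start of a noncoding transcript at 27740201 had a stronger one (81 and 131). The start of transcript Rxra-202 at 27709292 had no peak within 1000 bp in either replicate, the centre of the nearest lying 1798 bp away in replicate 1 and 1778 bp away in replicate 2. The main window and the one without a peak differ in base composition and are shown as RefSeq promoter windows of 300 bases (250 before and 50 after the start; GRCm38.p6), with each CpG in capitals: the main one holds 55 CpG dinucleotides and the internal one 1.
Rxra main start, chr2:27676951-27677250, plus strand: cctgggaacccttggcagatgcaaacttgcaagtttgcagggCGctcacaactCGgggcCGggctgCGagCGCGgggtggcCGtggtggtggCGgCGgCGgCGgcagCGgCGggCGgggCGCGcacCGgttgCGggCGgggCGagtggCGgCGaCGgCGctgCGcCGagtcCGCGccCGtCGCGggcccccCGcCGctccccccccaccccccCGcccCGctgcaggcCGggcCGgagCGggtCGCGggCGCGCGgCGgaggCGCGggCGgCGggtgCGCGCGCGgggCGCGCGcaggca
Rxra internal start, chr2:27709042-27709341, plus strand: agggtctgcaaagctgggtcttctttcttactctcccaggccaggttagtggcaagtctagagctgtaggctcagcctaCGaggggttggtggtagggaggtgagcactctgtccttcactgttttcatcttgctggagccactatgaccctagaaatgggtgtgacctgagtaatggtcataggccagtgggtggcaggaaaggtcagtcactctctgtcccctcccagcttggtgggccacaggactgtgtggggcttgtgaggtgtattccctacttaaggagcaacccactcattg

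The 36 distal shared sites of Rxra had values from 30 to 105 in replicate 1 and from 73 to 134 in replicate 2, and the strongest lay far from the main start. An intronic site at chr2:27758476-27758645, 82.1 kb into the gene, had values of 105 in replicate 1 and 133 in replicate 2, at percentiles of 94.4 and 94.3. An intergenic site 58.5 kb upstream, at chr2:27617836-27618005, had 98 and 134 (91.9 and 94.7). The 200 bases about the centre of the intronic site (chr2:27758461-27758660, reference strand) are given. It was the highest ranked distal site of the gene, and these bases held none of the 6 motifs searched.
Rxra intronic site: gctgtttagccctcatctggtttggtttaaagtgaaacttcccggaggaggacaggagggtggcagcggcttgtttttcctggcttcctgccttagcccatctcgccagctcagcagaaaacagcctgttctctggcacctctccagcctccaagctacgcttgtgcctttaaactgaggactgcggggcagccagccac
The end of the gene held its densest run. From chr2:27758476 to 27765205, 9 shared sites stood within 6.73 kb, of which 4 lay in the 3′ UTR exon and 4 just beyond it. Their values ran from low to high. The UTR sites had 30, 48, 54 and 36 in replicate 1, at percentiles from 24.7 to 61.5. In replicate 2 the UTR sites had 73, 108, 89 and 81, at percentiles from 54.6 to 82.0. The last site of the run had 85 and 117. In replicate 2 a single hotspot of 4542 bp with 8 peaks covered chr2:27761138-27765679, and with it 7 of the 9 sites, and was wider than 99.9% of that library's hotspots. In replicate 1 the widest hotspot within that span was 1056 bp and held 3 peaks. The first 2 sites of the run lay in separate hotspots in replicate 2.

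Rxrb encodes RXRβ, the broadly expressed member of the family, and lies at chr17:34031812-34038399 on the plus strand, inside the major histocompatibility complex, with 15 protein-coding genes in its window. Its 3 shared sites all lay near start sites of its own transcripts. They had values of 65, 57 and 62 in replicate 1 and of 116, 100 and 113 in replicate 2, between percentiles 64.8 and 86.5, so they differed little among themselves. The 2 of them further into the gene lie near starts of noncoding transcripts only. A stronger peak, with 116 and 144 (percentiles 97.5 and 98.5), overlapped the RefSeq promoter window of the first Rxrb start (chr17:34031562-34031861). Its centre lay nearer to Slc39a7, a zinc transporter gene that starts 130 bp away in the opposite direction. It was assigned to that gene, and which of the pair it serves cannot be told apart by position. No distal peak was assigned to Rxrb in either library, in 6.2 kb of nearest genome. In its whole extended window there were 12 distal shared sites, all nearer to starts of other genes.

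Rxrg encodes RXRγ, known mainly from muscle and brain, and lies at chr1:167598384-167639623 on the plus strand. Its starts behaved differently. The 3 transcripts that begin between 167598384 and 167598480 had no peak and no hotspot within 1000 bp in either replicate, and the centre of the nearest peak was 19710 bp away. That peak, at chr1:167618116-167618265, marks the internal start of transcript Rxrg-202 at 167618309, with values of 47 in replicate 1 and 114 in replicate 2 (percentiles 52.7 and 85.4). Both libraries therefore have a peak at the internal start and none at the upstream starts. The windows at both starts are shown for this contrast. The one without a peak holds 13 CpG and the one with a peak 9, so CpG number alone does not order them. The window with a peak also contains a match to the C/EBP consensus, TTGCCAAA at 167618260 to 167618267.
Rxrg upstream starts, chr1:167598112-167598411, plus strand: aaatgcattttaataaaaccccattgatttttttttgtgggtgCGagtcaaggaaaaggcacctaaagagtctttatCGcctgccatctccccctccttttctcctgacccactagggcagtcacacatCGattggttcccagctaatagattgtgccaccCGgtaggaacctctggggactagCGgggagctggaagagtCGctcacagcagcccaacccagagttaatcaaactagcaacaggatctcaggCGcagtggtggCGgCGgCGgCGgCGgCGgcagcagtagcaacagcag
Rxrg internal start, chr1:167618015-167618314, plus strand: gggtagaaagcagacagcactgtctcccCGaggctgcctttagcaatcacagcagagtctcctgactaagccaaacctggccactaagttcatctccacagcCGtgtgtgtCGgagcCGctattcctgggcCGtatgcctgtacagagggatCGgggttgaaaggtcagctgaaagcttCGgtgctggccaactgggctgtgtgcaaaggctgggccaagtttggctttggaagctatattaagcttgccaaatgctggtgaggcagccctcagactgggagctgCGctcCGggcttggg
Of the 3 distal shared sites of Rxrg, the intronic one at chr1:167637136-167637305 had 68 and 100, a site past the end of the gene at chr1:167645016-167645205 had 59 and 95, and a site 46.5 kb upstream had 26 and 56. Among genes with a comparable length of nearest genome the median was 4, and 30.8% had fewer sites than Rxrg.

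Nr1h2 encodes LXRβ, the LXR found in most tissues, and lies at chr7:44549616-44553951 on the minus strand. Its promoter peak at chr7:44553916-44554085 had values of 116 in replicate 1 and 139 in replicate 2, at percentiles of 91.5 and 81.0 among promoter sites. A second promoter site inside the gene had 75 and 121. In the 12.9 kb nearest to this gene, distal sites stood 3.7 kb upstream (46 and 95) and 7.28 kb upstream (63 and 102). The further of these held a C/EBP match, TTGCAGAA. Among genes with a comparable length of nearest genome the median count was 0, and 81.6% had fewer than 2.

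Nr1h3 encodes LXRα, the LXR of liver, macrophages and fat, and lies at chr2:91184061-91202834 on the minus strand. Of the member promoters that belong to a coding start, its own ranked highest. The site at chr2:91195076-91195265, among the starts of 4 coding transcripts, had 119 in replicate 1 and 147 in replicate 2, at percentiles of 93.7 and 96.6 among promoter sites. A site centred 154 bp past the nearest start site, 8.1 kb into the annotated gene, had 86 and 124. The site with 127 and 144 at chr2:91202736-91202905 covers the start of a noncoding transcript, Nr1h3-207. It also covers the start of the lysosomal phosphatase gene Acp2, 51 bp from that of Nr1h3-207, and the start of the noncoding gene Gm13783. Which of these genes the site belongs to cannot be told apart. The window at the coding starts holds only 10 CpG dinucleotides, fewer than the other accessible windows of the set except the overlapping Nr1h3 window with 8 and the internal Rxrg window with 9.
Nr1h3 coding starts, chr2:91194986-91195285, minus strand: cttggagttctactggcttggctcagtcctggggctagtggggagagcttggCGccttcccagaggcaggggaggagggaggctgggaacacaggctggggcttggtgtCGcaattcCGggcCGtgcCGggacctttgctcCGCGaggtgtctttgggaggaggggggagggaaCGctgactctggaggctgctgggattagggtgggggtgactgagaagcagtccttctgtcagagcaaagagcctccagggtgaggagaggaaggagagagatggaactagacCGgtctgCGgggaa
Its 2 distal shared sites were both intronic. The one at chr2:91196576-91196765, 1.52 kb upstream of the coding starts and also within Gm13783, had 85 and 123, and the one at chr2:91187596-91187745, 15.2 kb into the gene, had 68 and 114. This second site was unlike any other of the 81 shared sites in holding both a C/EBP and an AP-1 match. They stand in capitals in the 200 bases about its centre (chr2:91187571-91187770, reference strand). The C/EBP match TTGCTGAA is on the opposite strand.
Nr1h3 intronic site: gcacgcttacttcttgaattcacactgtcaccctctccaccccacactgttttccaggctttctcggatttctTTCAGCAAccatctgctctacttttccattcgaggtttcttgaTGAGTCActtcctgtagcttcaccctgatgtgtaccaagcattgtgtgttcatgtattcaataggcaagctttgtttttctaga
Replicate 2 added 7 sites in this gene that replicate 1 lacked, with percentiles between 40.1 and 72.0, so that 5 of 12 replicate 2 peaks (41.7%) overlapped a replicate 1 peak here.

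Ppara encodes PPARα, the regulator of fatty acid oxidation in liver and brown fat, and lies at chr15:85734983-85802819 on the plus strand. No peak and no hotspot of either library lay within 1000 bp of its coding starts, between 85735564 and 85736131. The centre of the nearest peak was 17553 bp away in replicate 1 and 10673 bp away in replicate 2. The promoter peak that replicate 2 did have, with a value of 41 at percentile 11.6, was centred 683 bp from the start of the noncoding transcript Ppara-205, deep in the gene. The window at the coding start, without a peak, is rich in CpG, with 30 in its 300 bases. This is more than the 27 of the Ppard window, which has a peak. Over all RefSeq promoter windows with 15 or more CpG, 73.6% overlapped a shared peak, against 35.7% of those with 5 to 14 and 8.08% of those with 4 or fewer. Both windows are shown with CpG in capitals.
Ppara coding start, chr15:85735526-85735825, plus strand: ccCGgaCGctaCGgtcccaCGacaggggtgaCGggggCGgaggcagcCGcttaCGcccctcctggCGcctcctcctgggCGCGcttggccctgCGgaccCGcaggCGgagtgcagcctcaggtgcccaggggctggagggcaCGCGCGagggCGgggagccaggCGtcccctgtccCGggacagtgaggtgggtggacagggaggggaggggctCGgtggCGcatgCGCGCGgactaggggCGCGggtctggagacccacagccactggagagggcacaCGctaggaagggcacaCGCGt
Ppard coding start, chr17:28232504-28232803, plus strand: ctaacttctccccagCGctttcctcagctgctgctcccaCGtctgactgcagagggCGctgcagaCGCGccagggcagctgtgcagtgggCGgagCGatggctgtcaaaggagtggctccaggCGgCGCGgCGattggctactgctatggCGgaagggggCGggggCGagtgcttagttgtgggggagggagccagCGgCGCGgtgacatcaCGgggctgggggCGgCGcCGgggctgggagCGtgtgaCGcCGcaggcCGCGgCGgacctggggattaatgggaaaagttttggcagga

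**Figure D3:**
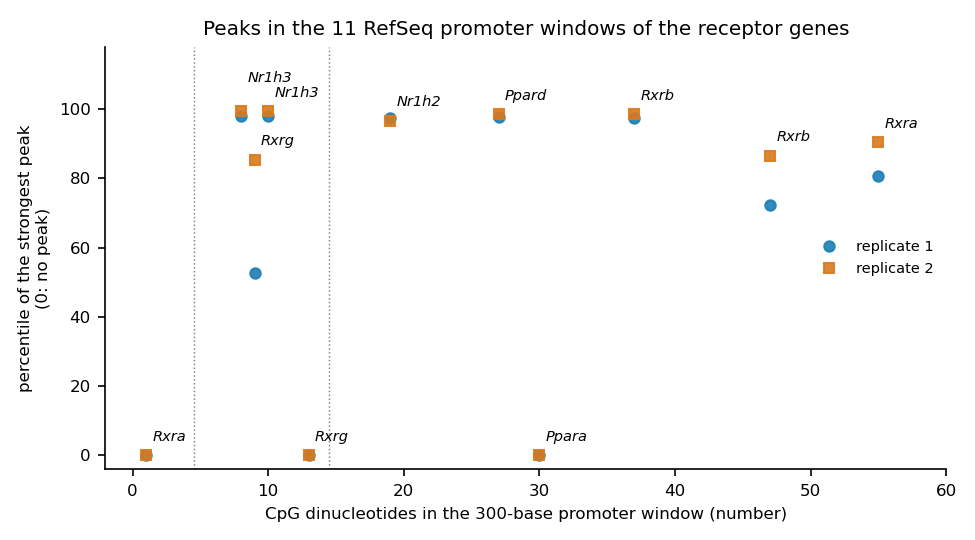
Percentile of the strongest peak of each replicate that overlaps each of the 11 RefSeq promoter windows of the receptor genes (vertical axis; 0 where there is no peak) against the number of CpG dinucleotides in the window (horizontal axis); dotted lines separate 4 or fewer, 5 to 14, and 15 or more. The Ppara window, with 30 CpG, is the only one of 6 windows with 15 or more that has no peak.

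At Ppara, coding starts without a peak went with many distal sites. The gene had 11 in common to both libraries. In genes with a comparable length of nearest genome the median was 6, and 74.7% had fewer than Ppara. Of the 1962 genes with at least 11, 315 (16.1%) also lacked a promoter peak in 1 or both replicates. Of all protein-coding genes, 57.2% had one in both. Of the 11, 10 lay upstream, between 16.9 and 65.1 kb before the gene, in 2 stretches. The far one, at chr15:85669636-85673245, held 4 sites within 3.61 kb, led by a site with 106 in replicate 1 and 131 in replicate 2 (percentiles 94.7 and 93.5). In replicate 2 a hotspot of 3408 bp with 5 peaks covered the first 3 of these sites, wider than 99.7% of that library's hotspots. The near stretch ran from 31.6 to 16.9 kb upstream and was led, by the mean of the 2 percentiles, by the site at chr15:85710096-85710425, with 83 and 129. In replicate 1 the site at chr15:85703296-85703445 ranked above it, with 90 and 119. Replicate 2 alone added 14 upstream sites with no counterpart in replicate 1, at percentiles of up to 78.3. In all, 12 of the 28 replicate 2 peaks of Ppara overlapped a replicate 1 peak (42.9%), and the members ran from 41.7% for Nr1h3 to 80.0% for Nr1h2. Of the 10 shared upstream sites, 6 lay in the body of Lncppara, a noncoding gene of the annotation at chr15:85653616-85707524 on the plus strand, and the start of the microRNA gene Mirlet7c-2 was within 1000 bp of 1 of them. The nearest protein-coding start decided the assignment to Ppara; whether these sites act on it was not tested. An extension of 50 kb in place of 100 kb left 7 of its sites and an extension of 20 kb left 3.

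Inside the 67.8 kb gene body, both libraries shared a single Ppara site, at chr15:85759416-85759585, 24.5 kb into the gene. It was also the weakest shared site of the whole set, with values of 22 in replicate 1 and 40 in replicate 2 (percentiles 9.76 and 10.5), and it was 1 of 2 with a direct repeat 1 match, given below.

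Ppard encodes PPARδ, the broadly expressed PPAR, and lies at chr17:28232700-28301474 on the plus strand. Its layout was the reverse of that of Ppara: an accessible promoter, and distal sites that lay mostly inside the gene. The promoter peak at chr17:28232596-28232745 had 117 in replicate 1 and 144 in replicate 2, at percentiles of 92.3 and 91.0 among promoter sites. A second site 433 bp downstream had 53 and 106. An alternative start near 28272119 had a peak in replicate 2 alone (55, percentile 31.5), and the start of the noncoding transcript Ppard-208 had none. Of its 12 distal shared sites 10 lay within the gene and 2 upstream, the further of these in a coding exon of the neighbouring gene Def6. Their values ran from 24 to 108 in replicate 1 and from 70 to 141 in replicate 2. Among genes with a comparable length of nearest genome the median was 3, and 95.9% had fewer.

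A pair of sites in the first intron of Ppard led its distal sites and, by the mean of the 2 percentiles, all 66. The one at chr17:28236416-28236585, 3.69 kb past a start site, had 108 in replicate 1 and 141 in replicate 2 (percentiles 95.3 and 97.4). Its neighbour at chr17:28236076-28236245, with 170 bp between them, had 105 and 136 (94.4 and 95.5). The first contains none of the motifs searched, and the second contains a C/EBP match on the opposite strand, in capitals. Both are shown as the 200 bases about the centre, on the reference strand (chr17:28236401-28236600 and chr17:28236061-28236260).
Ppard intronic site without a match: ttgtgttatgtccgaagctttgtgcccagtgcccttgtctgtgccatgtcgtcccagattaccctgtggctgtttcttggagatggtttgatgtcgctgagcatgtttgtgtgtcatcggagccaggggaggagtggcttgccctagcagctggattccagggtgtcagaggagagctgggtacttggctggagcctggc
Ppard intronic site with a C/EBP match: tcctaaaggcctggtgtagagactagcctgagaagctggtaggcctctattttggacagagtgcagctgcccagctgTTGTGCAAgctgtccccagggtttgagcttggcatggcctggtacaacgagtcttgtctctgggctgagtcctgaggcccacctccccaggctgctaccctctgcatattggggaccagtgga

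The 6 motifs were searched on both strands of the 200 bp about the centre of each shared site. Most sites are narrower than this, so a counted match can lie just outside its site. This was so for a C/EBP match of Rxra (chr2:27617823-27617830) and an NFI match of Ppard (chr17:28288100-28288112). Direct repeat 1 (AGGTCANAGGTCA) and direct repeat 4 (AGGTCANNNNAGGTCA) were allowed 1 mismatch, and C/EBP (TTGCNNAA), AP-1 (TGANTCA), EBF (TCCCNNGGGA) and NFI (TGGCNNNNNGCCA) had to match exactly. Direct repeat 1, the element of PPAR and RXR, matched 2 of the 81 shared sites (2.47%, exact 95% interval 0.3% to 8.64%), against 0.741% of all shared sites. Direct repeat 4, the element of LXR and RXR, matched 0 of 81, against 0.247%. A limit of 3 counts of the total allows a share of up to 3.7%, and the exact interval reaches 4.45%. The matches are the weak intronic Ppara site (the match at chr15:85759498-85759510, minus strand) and the third Rxrb site (chr17:34036833-34036845, minus strand), each with 1 mismatch. They are shown with 24 bases on each side, on the strand of the match, the 13 bases of the match in capitals.
Ppara intron: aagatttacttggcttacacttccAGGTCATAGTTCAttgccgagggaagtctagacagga
Rxrb gene body: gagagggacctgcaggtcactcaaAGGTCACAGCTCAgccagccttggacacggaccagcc
C/EBP, the element of the factors that act beside PPARγ in adipocytes, matched 7 sites (8.64%, 3.55% to 17.0%), against 14.5% of all shared sites. They were 2 of Rxra, 2 of Ppard, and 1 each of Rxrg, Nr1h2 and Nr1h3. AP-1 also matched 7, against 10.8%, of which 5 belonged to Rxra and 1 each to Rxrg and Nr1h3, and NFI matched 4 (4.94%, 1.36% to 12.2%), against 2.25%. EBF matched none, against 1.23%. The intervals of direct repeat 1, C/EBP, AP-1 and NFI cover counting error only and each include the share over all sites, and a match describes letters and not binding. In the 11 RefSeq promoter windows of the members neither direct repeat was found, against 0.476% and 0.199% of 20150 windows, and 1 window held C/EBP, as did 2022 of the 20150.

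Among all 49 nuclear receptor genes of the mouse, Rxra had the most distal shared sites. Behind its 36 came Rora (27), Pparg (26) and Nr3c1 and Rarb (23 each); Pparg had 35 distal peaks in replicate 1 and 70 in replicate 2, close to the 39 and 66 of Rxra. Ppard ranked 11 and Ppara 12. Rxrg, Nr1h2, Nr1h3 and Rxrb stood at ranks 30, 37, 37 and 42. By density the lead of Rxra did not hold: 3 of the other receptors had more than its 17.0 sites per 100 kb of nearest genome, up to 31.5. Of the 42 receptors outside the set, 26 had a promoter peak in both replicates (61.9%), and their median was 4.5 distal sites; those without one included Nr0b1, Nr0b2 and Rarb.

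The genes that work with these receptors or answer to them were described in the same way. Of 15 coregulator genes, whose products are recruited by the receptors to activate or repress, 15 had a promoter peak in both replicates, with a median of 16 distal shared sites. Nrip1, a corepressor of lipid metabolism genes, and Ppargc1b, a coactivator of mitochondrial genes, had 22 each. Of 12 LXR target genes 8 had a promoter peak in both, with a median of 6.5 distal sites. Abca1, the cholesterol exporter, had 34, Scd1, the stearoyl-CoA desaturase, 24, and Mylip, which directs degradation of the LDL receptor, 11. Abcg1 and Abcg8 had no promoter peak in either replicate, and Apoe had one in replicate 2 alone. Of 16 target genes of PPARα and PPARδ 10 had a promoter peak in both, with a median of 2, led by Pdk4 (18), which restrains glucose oxidation, Cpt1a (11), which admits fatty acids to mitochondria, and Angptl4 (9), an inhibitor of lipoprotein lipase. Cpt1b and Fgf21 had no promoter peak in either replicate and Ehhadh had one in replicate 2 alone. Of 13 genes of ligand supply and transport 5 had a promoter peak in both, with a median of 3, led by Fabp4 (13), the fatty acid carrier of adipocytes, and by the retinoic acid synthesis genes Aldh1a3 (9) and Aldh1a1 (8). Rbp4 and Stra6, which carry or take up retinol, had no promoter peak in either. Set beside the 57.2% of all genes, the coregulator list was accessible at every promoter and the ligand supply list at 38.5% of them, and no test was made of these lists.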

How the data were processed

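DNase-seq peaks and hotspots of 2 libraries of 1 group were used as deposited. Per the text deposited with the libraries, each list came from 1 alignment file on mm10 and replicates were not pooled. No label or header used here names the caller, its filters or the depth. Each deposited peak carries a signal whose scaling by the authors is not stated, and the deposited hotspot lists hold a −log10 q value with a ceiling of 100. Identical lines (20 and 33 peaks) were counted once, and peaks off the 21 main chromosomes (337 and 603) were left out.

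Start sites were the 93513 of all transcripts of protein-coding genes in GENCODE M21. A shared site was a merged interval (overlap of at least 1 bp) with a peak of both replicates. A gene had a promoter peak when a peak overlapped within 1000 bp of a start site. A distal site had its centre more than 1000 bp from every start site. Genes of comparable nearest genome were those of the same decile. Percentiles are mean ranks within a list; those of promoter sites are within the shared promoter sites. Promoter sequences are RefSeq windows, and other sequences were read from GRCm38.p6, with Python 3.11.15 and pysam 0.24.0. The procedures were tested on simulated data. No test was possible with 1 group, and p-values are not given. The members, lists and motifs were chosen with earlier results of these data known. From each list were named the 3 genes with the most distal shared sites and up to 3 without a promoter peak in both replicates, in list order, and sites were named by start site, by the 2 highest mean percentiles per gene and by direct repeat matches. Some of the genes this gives are not reported here. Other sites and values that the text singles out were chosen after their values were seen.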

Additional observations from a re-analysis of the deposited data

How the results depend on the processing

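The count of 6 members with a promoter peak in both replicates stayed at 6 in 5 alternatives, and Ppara was the exception each time. Over all genes the share was 54.4% with promoter windows of 500 bp and 63.2% with 2500 bp. It was 57.6% with hotspots, 51.7% with the stronger 50% of each list and 55.1% with start sites of protein_coding transcripts. Replicate 1 alone gave 6 members, against 57.5% of all genes. Replicate 2 alone gave 7, Ppara being added, against 61.7%. The 66 distal shared sites became 131 when every distal shared site of the windows was counted whatever its nearest start, and 72 to 123 with 1 replicate left out; the other alternatives gave between 46 and 62, or 66 with protein_coding start sites. Of the 9 alternatives per gene, the count stayed within 1.5 times in 8 for Rxra, Ppard and Nr1h2, in 7 for Rxrb and Rxrg, in 6 for Nr1h3 and in 5 for Ppara, whose count ran from 3 to 27. The 2 direct repeat 1 matches among 81 shared sites became 0 with no mismatch allowed, against 0.0723% of all shared sites. With 2 mismatches they became 3 of 81, and at that setting 4.75% of all distal shared sites matched. Leaving out replicate 1 gave 4 of 148 peaks, and leaving out replicate 2 gave 2 of 87. The share over all peaks is not given for these last 2 settings. The 56.1% of replicate 2 peaks that overlapped replicate 1 became 51.4% when the overlap had to cover at least 50% of the shorter peak and 54.7% in the stronger 50% of the lists (59.9% over all peaks). No paired analysis was possible because both libraries belong to 1 group. Depth is unknown, so a site missing from a list may have been below detection.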
